A study of Mus musculus with 18 samples.

Results

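The 10 genes described here restrain bone morphogenetic protein (BMP) signaling or, in the case of Id1, respond to it. They comprise the secreted proteins Nog, Grem1, Chrdl1, Chrd, Fst and Fstl1, the membrane protein Bambi, the inhibitory SMADs Smad6 and Smad7, and Id1, a gene that BMP signaling switches on. The members were chosen by name for their roles in the pathway, as 10 genes among the 38243 listed in the count files. The libraries came from female C57BL/6 mouse embryos (C57BL6/J in the methods) at embryonic day 16.5. Fgfr2+/S252W embryos carry a knock-in allele of the fibroblast growth factor receptor Fgfr2 that models Apert syndrome, and Fgfr2+/+ littermates served as wild-type controls. Mandibular bone, Meckel's cartilage (MC) and mandibular condylar cartilage were cut from frozen coronal sections by laser capture, with 3 libraries for each of the 6 groups of genotype and tissue and 18 libraries in all. The sample codes give the same genotype and number to a library of each tissue, which was read as 1 of 6 embryos. The knock-in allele changes a single residue in the animal's own gene, so the Fgfr2 transcript level does not check the genotype.

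BMPs are secreted ligands that bind paired receptors on the cell surface and send a signal into the nucleus through phosphorylated SMAD proteins. In the embryonic skeleton they drive mesenchymal condensation, cartilage growth and osteoblast differentiation. The signal is restrained outside the cell by proteins that trap the ligand, at the membrane by a pseudoreceptor, and inside the cell by inhibitory SMADs that are themselves induced by the pathway.

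The files held between 8218548 and 15585778 counted fragments per library, with mitochondrial genes taking 19.4% to 38.1% of them. Gm42418 is a gene that overlaps ribosomal RNA sequence. It took 24.1% to 39.4% of counts in MC, 10.9% to 20.2% in condylar cartilage and 5.58% to 9.33% in bone. Chondrocyte markers, summed as normalized counts (counted fragments scaled to library size after TMM, CPM) over 8 genes, were 31909 to 39245 in condylar cartilage and 229 to 588 in bone. In MC the sum was 2381 to 9893 in 5 libraries and 417 in wild-type replicate 1, so the libraries labelled MC carried far less of these transcripts than condylar cartilage, and wild-type MC 1 stood apart from the other MC libraries. Col2a1, the main collagen of cartilage, was 212 in wild-type MC 1, against 1563 to 7201 in the other MC libraries and 19339 to 25474 in condylar cartilage. Osteoblast markers summed to 16905 to 34582 in bone and 1614 to 4021 in MC. In condylar cartilage the osteoblast sum was 5030 to 6154 in 4 libraries, 12359 in wild-type replicate 3 and 19580 in Fgfr2+/S252W replicate 3. For the members whose levels in these libraries stood apart, values are also given below without wild-type MC 1 or without both condylar replicates 3. Connective tissue and perichondrium markers were also summed over 8 genes. The sum was 2154 to 3093 in MC, 2515 to 3857 in bone and 1122 to 1473 in condylar cartilage. The part of these cells in the member levels of MC was not tested. In these captured tissues, fewer cells of a type and less RNA per cell cannot be told apart.

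**Figure D1:**
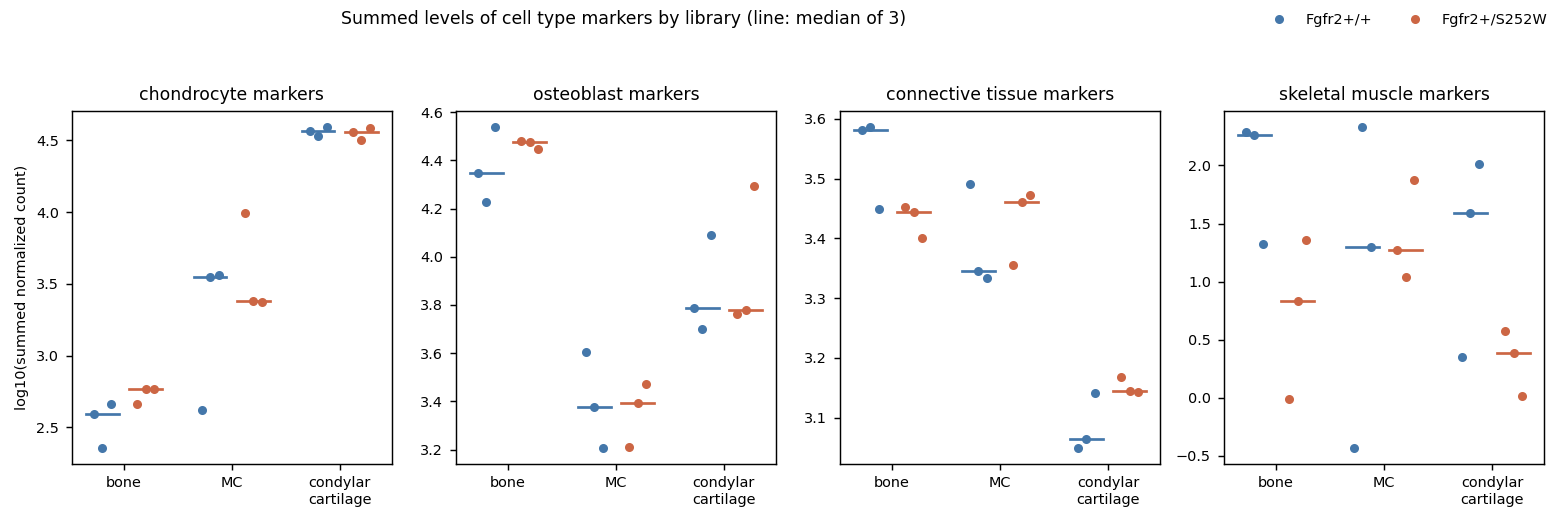
Summed normalized counts of cell type marker lists in each library by tissue, on a log scale, with 1 point per library and a line at the median of 3. Chondrocyte markers in condylar cartilage sit at or above 31909 in all 6 libraries, wild-type MC replicate 1 sits at 417, and condylar replicates 3 have the highest osteoblast sums of that tissue.

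Promoter sequences show the start regions of 3 members whose levels differed between tissues. They are RefSeq sequences of assembly GRCm38.p6, 300 bases long, from 250 bases before to 50 bases after the annotated start, and 4 of the 10 members had an entry (Grem1, Chrd, Fstl1 and Smad6). Capitals mark matches to GTCTAGAC, the palindromic SMAD-binding element, or to GGCGCC, a GC-rich element bound by BMP-activated SMADs. Both motifs are palindromes, so a match on 1 strand is a match on the other. Grem1 (chr2:113758599-113758898, minus strand) held GGCGCC 78 bases before the start. Smad6 (chr9:64022010-64022309, minus strand) held GTCTAGAC 4 bases before it, and Fstl1 (chr16:37776805-37777104, plus strand) held neither.
Grem1: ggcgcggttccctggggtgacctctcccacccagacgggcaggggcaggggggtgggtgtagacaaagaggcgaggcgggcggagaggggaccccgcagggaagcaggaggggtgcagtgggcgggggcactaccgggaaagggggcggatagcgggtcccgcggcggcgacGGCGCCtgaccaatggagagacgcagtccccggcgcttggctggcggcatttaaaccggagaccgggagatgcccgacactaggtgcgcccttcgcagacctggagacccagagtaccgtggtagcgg
Smad6: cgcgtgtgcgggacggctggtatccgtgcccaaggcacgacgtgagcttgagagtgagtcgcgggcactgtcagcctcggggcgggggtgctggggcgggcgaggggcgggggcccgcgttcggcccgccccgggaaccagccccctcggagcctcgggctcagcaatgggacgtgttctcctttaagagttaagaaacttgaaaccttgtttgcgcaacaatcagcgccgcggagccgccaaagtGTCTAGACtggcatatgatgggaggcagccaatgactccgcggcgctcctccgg
Fstl1: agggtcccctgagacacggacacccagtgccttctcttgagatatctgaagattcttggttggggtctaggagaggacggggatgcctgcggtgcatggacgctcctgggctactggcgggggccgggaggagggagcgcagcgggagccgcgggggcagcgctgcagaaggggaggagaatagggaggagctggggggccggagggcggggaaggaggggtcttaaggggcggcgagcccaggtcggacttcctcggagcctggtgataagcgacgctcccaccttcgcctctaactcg
The window of Chrd (chr16:20732877-20733176, plus strand) held GGCGCC 203 bases before the start. Among 32544 promoters of the same length, 0.215% held GTCTAGAC and 11.9% held GGCGCC. A match is a run of letters and not a measured site.

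The members were placed in the order of their length-scaled level, in normalized FPKM (the normalized count per kilobase of exon). Fstl1, a secreted glycoprotein of the follistatin family that can bind BMPs, had the highest median in every tissue, with 177 in MC, 70.0 in bone and 22.8 in condylar cartilage. In bone it was followed by Id1 (10.96), Bambi (7.32), Chrdl1 (5.09), Smad6 (4.10) and Smad7 (1.74), and the other 4 members had medians of 0.584 or less. In MC the next member was Fst (18.2), after which Id1, Smad6, Smad7, Chrdl1, Bambi and Grem1 had medians between 1.92 and 3.35 with overlapping libraries. In condylar cartilage Chrdl1 (17.6), Bambi (11.1) and Id1 (9.59) followed, then Nog (3.89), and the libraries of neighbors in that order overlapped. Summed over the 6 secreted members, the level was 151 to 225 normalized FPKM in MC, 67.9 to 105 in bone and 38.9 to 64.2 in condylar cartilage, with no overlap between tissues. Scaled by total counts in place of TMM, the sums of MC (104 to 163) and bone (99.0 to 124) overlapped and those of condylar cartilage (46.6 to 63.1) stayed below both. Fstl1 made up 82.1% to 95.5% of the TMM-scaled sum in MC and 88.1% to 94.2% in bone. In condylar cartilage, where Chrdl1 took most of the rest, it was 18.1% in Fgfr2+/S252W replicate 3 and 46.1% to 60.0% in the other libraries.

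**Figure D2:**
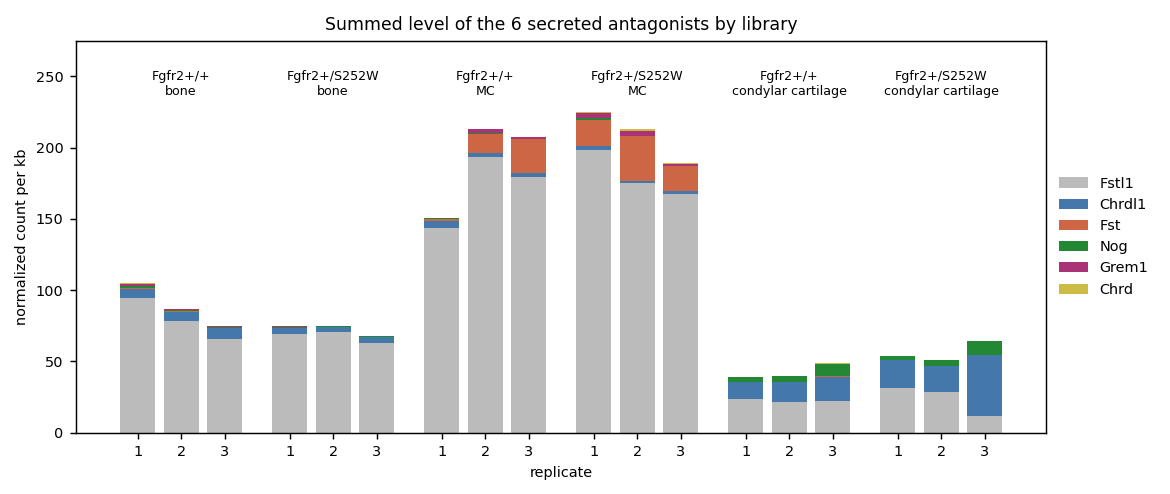
Normalized FPKM of the 6 secreted members stacked by library, with MC, bone and condylar cartilage shown for both genotypes. The Fstl1 segment fills most of each MC and bone bar. It fills 18.1% of the bar of Fgfr2+/S252W condylar replicate 3 and 46.1% to 60.0% of the other condylar bars. The Chrdl1 segment is most of the remainder in condylar cartilage.

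Differences between tissues were tested within embryos, averaged over both genotypes, with limma-voom and Benjamini-Hochberg adjusted p-values over all genes tested. Of the 10 members, 6 differed between bone and MC, 8 between condylar cartilage and MC, and 6 between bone and condylar cartilage. Among the 11469 genes above 1 FPKM, 49.5%, 55.2% and 41.8% passed in those 3 comparisons, and among the 14881 genes of the wider count filter, which supplies the tests for Nog, Grem1, Chrd and Fst, 48.1%, 54.9% and 43.6% passed. The shares of the members were therefore near or moderately above the share of all genes. Scaling by total counts instead of TMM moved the median of all genes by 1.07 (log2) for bone against MC, 0.76 for condylar cartilage against MC and 0.30 for bone against condylar cartilage, and the changes below are relative to the TMM center. Total counts include the Gm42418 and mitochondrial fragments, whose shares differed between tissues, and their part in that move was not tested.

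**Figure D3:**
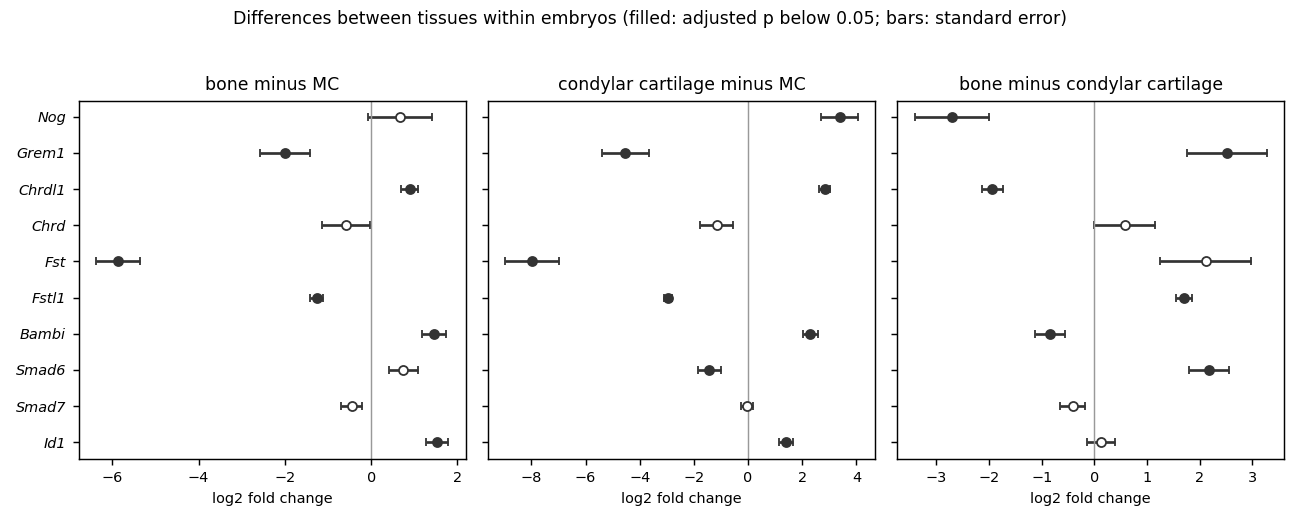
Log2 fold change between tissues for the 10 members, with bars for the standard error and filled points for an adjusted p below 0.05. Chrdl1 and Bambi were higher, and Fstl1, Fst and Grem1 lower, in condylar cartilage than in MC.

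Nog encodes noggin, which binds BMP ligands and blocks their receptor contacts. The gene lies at chr11:89300638-89302559 (minus strand, Ensembl GRCm38, as for the other positions). Normalized counts in condylar cartilage were 6.54, 7.64 and 15.5 in wild-type and 5.02, 7.31 and 18.2 in Fgfr2+/S252W libraries. In bone they were 2.68, 1.17 and 1.07 against 1.48, 0.887 and 0.856, and in MC 0.836, 2.10 and 0 against 2.00, 0.225 and 0.875. All 6 condylar libraries were above every bone and MC library. The log2 fold change was 3.38 (SE 0.67, adjusted p = 0.000357) for condylar cartilage against MC and -2.71 (SE 0.71, adjusted p = 0.00459) for bone against condylar cartilage. The second call was lost in wild-type embryos alone (adjusted p = 0.0754) and narrowly with sample quality weights (adjusted p = 0.0503). The 2 highest Nog libraries were the condylar replicates 3, which also had the highest osteoblast marker sums of that tissue. Hypertrophic chondrocyte markers Col10a1 (4203 and 3109 normalized counts against 1044 to 2206), Ihh and Pth1r were highest there too. Mmp13 of the same list was not, with 18.9 in wild-type replicate 3 and 28.1 in Fgfr2+/S252W replicate 2. The part of either cell type in the Nog level was not tested. Without both condylar replicates 3 the values were 2.68 (SE 0.56, adjusted p = 0.000811) and -2.07 (SE 0.61, adjusted p = 0.012). Bone and MC differed by 0.67 (SE 0.74, adjusted p = 0.479), and by 1.73 with total-count scaling, which passed (adjusted p = 0.0314).

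Grem1 encodes gremlin, another ligand trap of the cystine-knot family. It lies at chr2:113746164-113758646 (minus strand). In MC its normalized counts were 0.279, 10.9 and 5.06 in wild-type and 14.3, 15.5 and 4.90 in Fgfr2+/S252W libraries. In bone they were 6.02, 2.93 and 1.36 against 1.23, 0.975 and 0.803, and in condylar cartilage 0.0751, 0.166 and 1.53 against 0.134, 0.258 and 0. MC was high in 5 of 6 libraries and wild-type MC 1 was the exception, lying within the condylar range. The log2 fold change was -4.53 (SE 0.85, adjusted p = 0.000229) for condylar cartilage against MC and 2.52 (SE 0.75, adjusted p = 0.0115) for bone against condylar cartilage, which was 2.76 without wild-type MC 1 and 3.28 without both condylar replicates 3, and the condylar libraries held only 0 to 17 fragments, with 17 in wild-type replicate 3. Without wild-type MC 1 the first was -5.28 (adjusted p = 7e-07), without both condylar replicates 3 it was -5.12 (adjusted p = 0.00118), and in wild-type embryos alone it was -3.01 and no longer passed (adjusted p = 0.0545). The call for bone against condylar cartilage was lost within either genotype alone and without wild-type embryo 2 (2.11, adjusted p = 0.0613). Bone against MC gave -2.01 (SE 0.58, adjusted p = 0.00851), a call that was lost with edgeR, with embryo as a random block or no block, with total-count scaling, without wild-type embryo 2 (-1.57, adjusted p = 0.0891) or 3 (-1.44, adjusted p = 0.0685), and in wild-type embryos alone, where the difference was -0.56 (adjusted p = 0.64). Without wild-type MC 1 it was -2.52 (adjusted p = 4.75e-05).

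Chrdl1 encodes a chordin-like protein that binds BMP4 and related ligands. It lies at chrX:143285674-143394262 (minus strand). Condylar cartilage held 81.0, 97.8 and 114 normalized counts in wild-type and 133, 123 and 289 in Fgfr2+/S252W libraries. Bone held 41.3, 42.0 and 49.5 against 26.3, 21.6 and 27.5. MC held 33.5, 18.7 and 17.4 against 15.1, 10.6 and 14.7. Every condylar library was above every bone and MC library, and bone and MC overlapped. The log2 fold change of Chrdl1 was 2.83 (SE 0.20, adjusted p = 4.32e-09) for condylar cartilage against MC, -1.94 (SE 0.20, adjusted p = 6.25e-07) for bone against condylar cartilage, and 0.89 (SE 0.20, adjusted p = 0.00175) for bone against MC. These 3 calls held under each of the 20 alternatives run, and without both condylar replicates 3 the first was 2.59 (adjusted p = 1.49e-08).

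Chrd encodes chordin, which holds BMPs in an inactive complex. It lies at chr16:20733127-20742384 (plus strand) and overlaps Thpo on the other strand, which held 69 counts over the 18 libraries. Counting took no account of strand. Chrd was near the detection limit, with 2 to 24 fragments per MC library, and its normalized counts were 0.258 to 0.898 in condylar cartilage and 0.482 to 1.24 in bone. MC held 0.186, 0.957 and 0.562 in wild-type and 2.00, 5.40 and 2.98 in Fgfr2+/S252W libraries. No tissue difference passed the test over both genotypes. In Fgfr2+/S252W embryos alone Chrd was lower than in MC in bone (-2.07, adjusted p = 0.0294) and in condylar cartilage (-2.33, adjusted p = 0.0235), and in wild-type embryos alone the values were 0.90 (adjusted p = 0.406) and 0.012 (adjusted p = 0.992).

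Fst encodes follistatin, which binds activins most strongly and also BMPs. It lies at chr13:114452262-114458730 (minus strand). MC held 2.88, 31.4 and 55.5 normalized counts in wild-type and 44.0, 73.2 and 41.3 in Fgfr2+/S252W libraries. Bone held 2.94, 2.35 and 0.847 against 0.409, 0.532 and 0.107. In condylar cartilage 4 of 6 libraries held no fragment, which allows up to 0.201 to 0.258 normalized counts at 3 fragments, and the others held 1.62 and 0.257. The highest condylar value, in wild-type replicate 3, was below every MC library, while wild-type MC 1 lay within the bone range. Fst was lower outside MC, with a log2 fold change of -5.86 (SE 0.51, adjusted p = 1.16e-07) for bone against MC and a fitted -7.97 (SE 0.99, adjusted p = 2.85e-06) for condylar cartilage against MC, a size that depends on the count added to libraries at 0. Bone against condylar cartilage gave 2.11 (SE 0.86, adjusted p = 0.0569), which passed in 9 of 19 alternatives, among them DESeq2 (adjusted p = 0.0114) and the fits without wild-type MC 1 (2.37, adjusted p = 0.00491) or without both condylar replicates 3 (3.94, adjusted p = 0.0148). Over all limma fits that left out libraries or embryos the size was 1.37 to 3.94, with adjusted p up to 0.222. Bone against MC was -6.17 (adjusted p = 1.21e-09) without wild-type MC 1, -4.70 (adjusted p = 1.15e-06) without wild-type embryo 3, -4.56 with total-count scaling, -7.28 in Fgfr2+/S252W embryos alone and -4.44 in wild-type embryos alone, and it passed in each of these.

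Fstl1 lies at chr16:37776873-37836514 (plus strand) and contains a gene on the other strand with 164 counts in all. MC held 545, 732 and 681 normalized counts in wild-type and 753, 663 and 633 in Fgfr2+/S252W libraries. Bone held 357, 296 and 250 against 263, 268 and 239, and condylar cartilage 88.3, 80.8 and 84.8 against 119, 109 and 44.0. The libraries of the 3 tissues did not overlap, in the order MC, bone, condylar cartilage, and the means were 668 ± 74.6, 279 ± 43.1 and 87.6 ± 26 (SD, n = 6). The log2 fold change was -1.26 (SE 0.15, adjusted p = 2.94e-06) for bone against MC, -2.96 (SE 0.16, adjusted p = 1.94e-10) for condylar cartilage against MC and 1.69 (SE 0.15, adjusted p = 1.10e-07) for bone against condylar cartilage. With total-count scaling the first of these was -0.19 (adjusted p = 0.466), and the MC libraries (323 to 587) overlapped those of bone (348 to 424).

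Bambi is a transmembrane pseudoreceptor without a kinase domain that blocks BMP and TGF-beta receptor complexes. Condylar cartilage held 57.9, 53.5 and 77.5 normalized counts in wild-type and 47.8, 49.1 and 112 in Fgfr2+/S252W libraries. Bone held 42.2, 46.4 and 40.3 against 33.6, 26.3 and 26.4, and MC 29.9, 16.8 and 6.37 against 8.95, 7.66 and 10.7. Condylar libraries were above all bone and MC libraries with TMM, although with total-count scaling they overlapped bone (55.9 to 99.8 against 38.1 to 57.7), and only wild-type MC 1 reached into the bone range. Bambi was higher in condylar cartilage than in MC by 2.30 (SE 0.28, adjusted p = 2.44e-06) and in bone than in MC by 1.46 (SE 0.28, adjusted p = 0.000422), calls that held under each alternative and were 2.71 and 1.84 without wild-type MC 1. The difference of bone from condylar cartilage, -0.84 (SE 0.28, adjusted p = 0.0235), was lost in 7 of 20 alternatives, including the fit without both condylar replicates 3 (-0.48, adjusted p = 0.129), total-count scaling (-0.55, adjusted p = 0.193) and the fit without Fgfr2+/S252W embryo 3 (-0.62, adjusted p = 0.113).

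Smad6 blocks the receptor-activated SMADs of the BMP branch. It lies at chr9:63953076-64022059 (minus strand). Bone held 10.7, 10.8 and 12.6 normalized counts in wild-type and 17.9, 11.7 and 14.4 in Fgfr2+/S252W libraries. MC held 9.57, 5.55 and 4.12 against 10.4, 9.01 and 7.70, and condylar cartilage 2.48, 2.08 and 3.34 against 1.54, 1.63 and 11.2. Fgfr2+/S252W condylar replicate 3 was the only condylar library to reach the bone and MC ranges, and it also had the highest osteoblast marker sum of that tissue, a part that was not tested. Smad6 was higher in bone than in condylar cartilage by 2.17 (SE 0.38, adjusted p = 0.000173) under each alternative, and by 2.76 without both condylar replicates 3. Endothelial markers, summed over 5 genes, were 178 to 241 in bone, 20.4 to 82.4 in MC and 5.56 to 22.9 in condylar cartilage. The part of endothelial cells in the Smad6 level was not tested. Condylar cartilage against MC gave -1.43 (SE 0.42, adjusted p = 0.00799), a call lost with total-count scaling (-0.64, adjusted p = 0.202), in wild-type embryos alone (-1.36, adjusted p = 0.0741) and in 3 of the fits that left out 1 embryo (adjusted p = 0.0574 to 0.0736), and without both condylar replicates 3 it was -2.04 (adjusted p = 0.000132). Bone was above MC in all libraries, by 0.75 (SE 0.33, adjusted p = 0.0684), and that difference passed in 7 of 20 alternatives, among them the fit without wild-type MC 1 (1.02, adjusted p = 0.0463) and total-count scaling (1.81, adjusted p = 7.72e-05).

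Smad7 blocks both the BMP and the TGF-beta branch. Its normalized counts were 6.16, 5.87 and 6.78 in wild-type and 10.1, 8.69 and 8.46 in Fgfr2+/S252W bone, 7.43, 12.4 and 8.06 against 10.02, 12.4 and 12.95 in MC, and 9.77, 8.89 and 12.4 against 6.63, 9.37 and 15.8 in condylar cartilage. The tissues overlapped throughout. Bone against MC gave -0.45 (SE 0.24, adjusted p = 0.132) with TMM and 0.61 with total-count scaling. Condylar cartilage against MC gave -0.03 (SE 0.23, adjusted p = 0.911) with TMM and 0.73 with total-count scaling, which passed (adjusted p = 0.026). Bone against condylar cartilage gave -0.41 (SE 0.24, adjusted p = 0.176).

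Id1 is an inhibitor of basic helix-loop-helix factors and a direct target of BMP-activated SMADs. It lies at chr2:152736251-152737410 (plus strand). MC held 3.35, 3.25 and 7.31 normalized counts in wild-type and 5.21, 4.28 and 3.50 in Fgfr2+/S252W libraries. Bone held 9.43, 13.1 and 14.96 against 15.1, 11.7 and 12.4, and condylar cartilage 13.4, 9.80 and 10.2 against 12.1, 14.8 and 10.005. Every MC library was below every bone and condylar library. Id1 was higher than in MC by 1.53 in bone (SE 0.26, adjusted p = 0.000153) and by 1.40 in condylar cartilage (SE 0.27, adjusted p = 0.000292), and both calls held under each alternative.

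**Figure D4:**
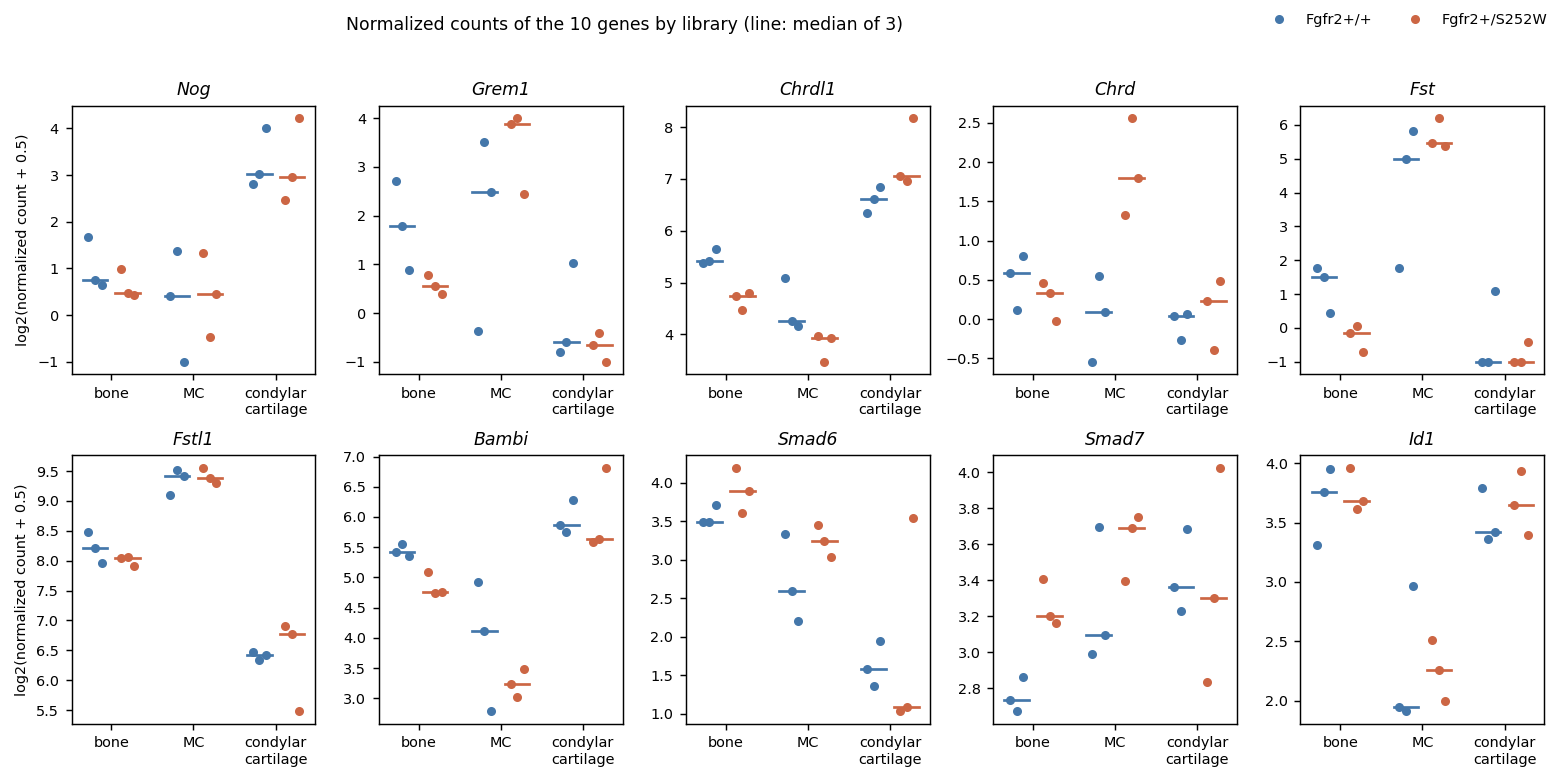
Normalized counts of each member on the log2(value + 0.5) scale, with 1 point per library, colors for genotype and a line at the median of 3. With the TMM scaling shown, every Fstl1 library of MC sits above every bone library and every bone library above every condylar library, and all 6 condylar libraries of Nog and Chrdl1 sit above those of the other tissues.

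The comparison of Fgfr2+/S252W with Fgfr2+/+ embryos asked whether the mutation shifted these restraints within a tissue. None of the 10 members passed the adjusted threshold in any tissue when limma-voom was fitted to all 18 libraries with the settings used throughout. Some passed in bone, and Chrd in MC, under other settings or tools, as given below. Few genes of any kind passed with the settings used throughout. In bone 0.0872% of the genes above 1 FPKM and 0.141% of the wider set passed, and in MC and condylar cartilage 0% of both sets passed. At an unadjusted p under 0.05 the counts of genes above 1 FPKM were 1761 for MC, 932 for bone and 351 for condylar cartilage. DESeq2 called 423, 18 and 3 genes in those tissues, and edgeR called 90, 4 and 0.

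In bone, 5 of the 10 members had genotypes whose libraries did not overlap, against 20.1% of all genes in the wider set. Chrdl1, at 41.3 to 49.5 normalized counts in wild-type and 21.6 to 27.5 in Fgfr2+/S252W bone, had a log2 fold change of -0.83 (SE 0.28, adjusted p = 0.396). With the 6 bone libraries fitted alone, where 1.14% of genes passed, the size was -0.83 (SE 0.14, adjusted p = 0.0196). With sample quality weights the adjusted p of Chrdl1 was 0.00924. Under those weights 589 genes passed for genotype in bone, against 10 with the settings used throughout. Bambi, at 40.3 to 46.4 against 26.3 to 33.6, had -0.58 (SE 0.30, adjusted p = 0.641), and its adjusted p was 0.0728 in bone alone. Smad7, at 5.87 to 6.78 against 8.46 to 10.1, had 0.52 (SE 0.27, adjusted p = 0.641). Grem1 gave -1.46 (SE 0.89, adjusted p = 0.738) and Fst -2.43 (SE 1.64, adjusted p = 0.785), both at 6.02 normalized counts or less in every bone library. Leaving out 1 library gave -2.07 to -0.93 for Grem1 and -3.03 to -1.82 for Fst. Smad6 (0.33), Chrd (-0.41) and Nog (-0.51) had overlapping libraries, and Fstl1 and Id1 had absolute log2 fold changes under 0.25. The bone libraries alone were also fitted without each in turn. Without wild-type bone 3, where 10.8% of the wider gene set passed, Chrdl1 (adjusted p = 0.0066), Bambi (0.0151), Grem1 (0.00928) and Fst (0.00742) passed. In the fits that left out 1 of the other 5 libraries Bambi (0.142 to 0.34), Grem1 (0.384 to 0.471) and Fst (0.283 to 0.371) did not, and Chrdl1 passed only without Fgfr2+/S252W bone 3 (0.0304; otherwise 0.0521 to 0.161). With all tissues in the fit, the adjusted p of Chrdl1 was 0.316 or higher whichever bone library was left out. The wild-type libraries that remain without replicate 3 differed from the other 4 in mitochondrial share, with 36.0% and 34.8% against 20.4% to 23.6%. Gm42418 took 8.57% to 9.33% of counts in wild-type and 5.58% to 6.49% in Fgfr2+/S252W bone. The libraries of Fgfr2+/S252W bone also differed from wild-type bone in markers. Osteoblast markers, of the main cell type there, had overlapping sums of 28092 to 30305 in Fgfr2+/S252W against 16905 to 34582 in wild-type bone (the order also of the sums that follow), with 3 of 8 genes higher and 1 lower without overlap. Chondrocyte markers summed to 459 to 588 against 229 to 463, with 2 of 8 genes higher and 1 lower without overlap, and 1 of 5 endothelial genes was lower without overlap. Osteoclast markers summed to 1662 to 2305 against 861 to 1146, with 8 of 8 genes not overlapping, and red blood cell markers to 313 to 595 against 1250 to 1503, with 5 of 5 not overlapping. Skeletal muscle markers were 192 and 183 in wild-type bone 1 and 2 and at most 22.9 in the other 4, and connective tissue markers summed to 2515 to 2829 in Fgfr2+/S252W against 2817 to 3857 in wild-type bone, with 4 of 8 genes lower and 1 higher without overlap. Macrophage markers were lower without overlap in 5 of 6 genes, while Cd68, which osteoclasts also express, was higher at 94.1 to 133 against 40.9 to 71.8. Smooth muscle and pericyte markers were lower without overlap in 3 of 4 genes. With limma-voom no marker passed the adjusted test for genotype among those above 1 FPKM, which were 7 of 8 osteoblast, 7 of 8 chondrocyte, 4 of 5 endothelial, 4 of 8 osteoclast, 5 of 5 red blood cell, 2 of 6 skeletal muscle, 7 of 8 connective tissue, 3 of 6 macrophage and 3 of 4 smooth muscle genes. The part of these cells and of RNA quality in the member values was not tested.

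In MC, 2 of the 10 members had genotypes without overlap, against 12.6% of all genes. Chrd was 0.186 to 0.957 in wild-type and 2.00 to 5.40 in Fgfr2+/S252W libraries, from 2, 5 and 3 fragments against 15, 24 and 17, with a log2 fold change of 2.62 (SE 0.69, adjusted p = 0.115). DESeq2 gave an adjusted p of 0.0193 in a test that called 2.98% of genes, and edgeR gave 0.105. Grem1 gave 2.48 (SE 0.87, adjusted p = 0.205) and Fst 1.92 (SE 0.63, adjusted p = 0.183), and both sizes turned on wild-type MC 1. Without that library Grem1 was 0.47 (adjusted p = 0.803), Fst 0.26 (adjusted p = 0.816) and Chrd 1.90 (adjusted p = 0.291). Chrdl1 was lower in all Fgfr2+/S252W MC libraries, at 10.6 to 15.1 against 17.4 to 33.5, with -0.80 (SE 0.44, adjusted p = 0.387), and without wild-type MC 1 it was -0.40 (adjusted p = 0.786). Bambi gave -0.86 (SE 0.55, adjusted p = 0.457) and -0.17 without that library. Nog (0.65), Smad6 (0.46) and Smad7 (0.40) had overlapping libraries. Among markers in MC, macrophage genes summed to 22.0 to 61.0 in wild-type and 66.0 to 95.1 in Fgfr2+/S252W libraries, with 3 of 6 higher without overlap, and osteoclast genes to 89.1 to 248 against 60.1 to 75.8, with 3 of 8 lower without overlap. Connective tissue genes had overlapping sums, with 2 of 8 higher without overlap (Mfap4 and Lum). Chondrocyte sums overlapped, at 417 to 3635 against 2381 to 9893, with a median log2 fold change of 1.18 over the 7 genes tested. None passed the adjusted test with limma-voom, and their part was not tested.

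In condylar cartilage 1 of the 10 members, Chrdl1, had genotypes without overlap, against 9.53% of all genes. Its libraries held 81.0 to 114 normalized counts in wild-type and 123 to 289 in Fgfr2+/S252W embryos, and the log2 fold change was 0.78 (SE 0.24, unadjusted p = 0.0044, adjusted p = 0.998). Without Fgfr2+/S252W condylar 3, the highest library, it was 0.41 (adjusted p = 0.998), and without replicate 3 of both genotypes 0.53 (adjusted p = 0.999). Grem1 and Fst were at or under 3 fragments in most condylar libraries and no fold is given. The remaining members had absolute log2 fold changes under 0.25, and without both replicates 3 Smad6 was -0.52 and Fstl1 0.43 (adjusted p = 0.999 for both). Among markers in condylar cartilage, connective tissue genes summed to 1122 to 1384 in wild-type and 1388 to 1473 in Fgfr2+/S252W libraries, with 2 of 8 higher without overlap. Skeletal muscle genes summed to 2.25 to 102 against 1.03 to 3.75, with 1 of 6 lower without overlap and a median log2 fold change of -2.24 over the 2 tested. Of the chondrocyte, macrophage and endothelial lists, 1 gene each was lower without overlap, and no gene of the osteoblast list was without overlap. None passed the adjusted test with limma-voom, and their part was not tested.

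**Figure D5:**
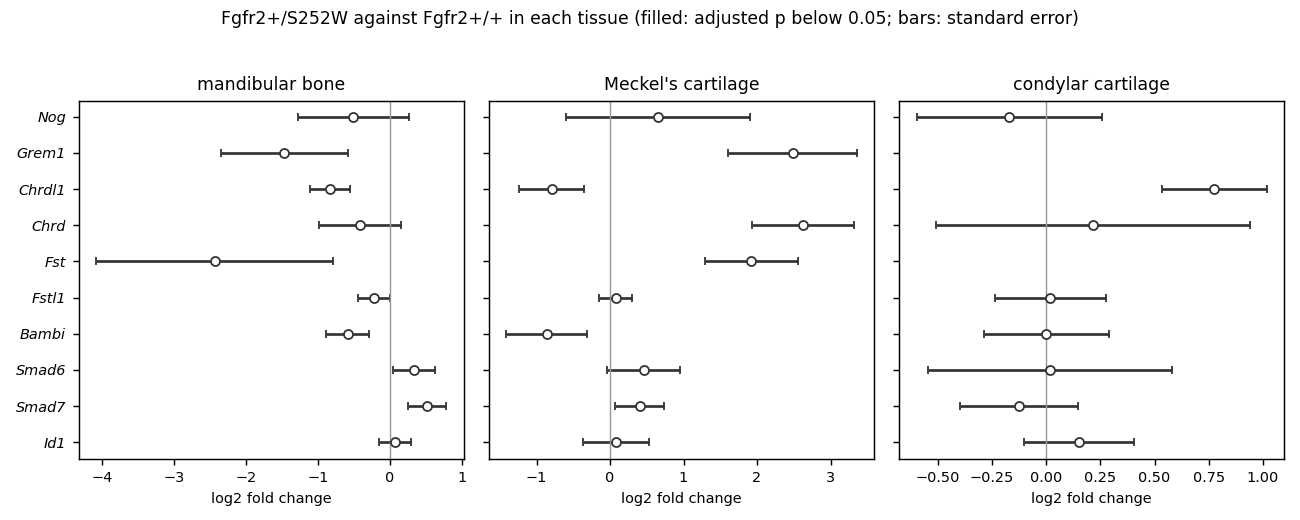
Log2 fold change of Fgfr2+/S252W against Fgfr2+/+ for the members in bone, MC and condylar cartilage, with bars for the standard error and open points for an adjusted p of 0.05 or more. The scale of the horizontal axis differs between panels. No point is filled, and Grem1 and Fst are not drawn in condylar cartilage because most libraries held 3 fragments or fewer.

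Chrdl1 was below wild-type in Fgfr2+/S252W bone and MC and above it in condylar cartilage, so the difference between these effects was tested. Condylar cartilage against MC gave 1.64 (SE 0.43, unadjusted p = 0.0015, adjusted p = 0.400) and bone against condylar cartilage gave -1.63 (SE 0.44, unadjusted p = 0.0018, adjusted p = 1.0), so neither passed. DESeq2 gave an adjusted p of 0.0446 for the first, in a test that called 0.436% of genes, and without wild-type MC 1 limma gave 1.13 (adjusted p = 0.521). Without both condylar replicates 3 the values were 1.42 (adjusted p = 0.351) and -1.42 (adjusted p = 0.912). For bone against MC the largest differences among the members were Chrd at -2.97 (SE 0.99, adjusted p = 0.367), Grem1 at -2.90 (SE 1.11, adjusted p = 0.445) and Fst at -2.84 (SE 1.28, adjusted p = 0.502). Without wild-type MC 1 they were -2.28, -1.80 and -2.14, and leaving out each embryo in turn gave -3.64 to -2.29 for Chrd, -4.03 to -1.58 for Grem1 and -5.16 to -1.97 for Fst. Among all genes, 0.0349% of those above 1 FPKM and 0.00672% of the wider set passed for bone against MC, and 0% of both sets for the other pairs. The unadjusted counts under 0.05 were 1046 for bone against MC, 222 for bone against condylar cartilage and 904 for condylar cartilage against MC with limma.

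The other genes of the pathway were read from 6 lists. No list gene passed the genotype test in any tissue, or the test of a difference in genotype effect. Between tissues, counts are given for the genes above 1 FPKM, to be read against the 49.5%, 55.2% and 41.8% of all genes that passed. Of 9 BMP ligands tested, 2 were higher and 3 lower in condylar cartilage than in MC. Bmp6 was higher by 4.32 (SE 0.24, adjusted p = 2.78e-10) and Bmp7 by 1.12, while Gdf10 was lower, at -4.43 (SE 0.39, adjusted p = 4.97e-08). In bone against MC, 2 ligands were higher and 2 lower, with Bmp3, a ligand that opposes other BMPs in bone, higher by 2.77 (SE 0.23, adjusted p = 7.91e-08).

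Receptors were lower in condylar cartilage than in MC in 7 of 9 tested, and none was higher. Tgfbr3, a co-receptor that presents TGF-beta and BMP ligands, was lowest at -4.73 (SE 0.46, adjusted p = 1.76e-07), followed by Acvrl1, an endothelial receptor, at -1.78. The median of the receptor list was -0.94, beside -0.01 for all genes. In bone against condylar cartilage 5 receptors were higher and none lower. Of the signal-transducing SMADs, 3 of 6 were higher in bone than in MC, among them Smad9 by 1.08 and Smad3 by 1.31, and 1 of 6 was higher in condylar cartilage than in MC.

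The other extracellular modulators divided. Of 7 tested, 3 were higher and 4 lower in condylar cartilage than in MC. Bmper, a BMP-binding modulator, was higher by 3.76, Crim1 by 1.60 and Twsg1, which acts with chordin, by 1.56. Nbl1, a relative of gremlin, was at -4.71. Sostdc1, a secreted BMP and Wnt antagonist, passed as lower, at 4.31 to 27.4 normalized counts in MC and 0 to 3.43 in condylar cartilage, where the median of 0.0376 was under the level of 3 fragments, so no size is given. The other intracellular inhibitors had 2 of 8 higher and 4 lower there, with Ski, a SMAD corepressor, at -2.08. BMP target genes had 2 of 9 higher and 5 lower in condylar cartilage than in MC. The lower ones included Msx1 and Msx2, homeobox genes of craniofacial mesenchyme, with no size given because their condylar medians of 0.322 and 0.189 lay within or under the 0.201 to 0.385 that 3 fragments give there. Msx1 held 32.9 to 46.6 normalized counts in MC and 0.166 to 1.03 in condylar cartilage, and Msx2 8.40 to 33.5 against 0.0669 to 0.827. In bone against condylar cartilage 6 of 9 targets were higher and none lower, with Hey1 at 5.69. Id1 was higher in condylar cartilage than in MC, as were the target genes Sp7 (2.26) and Runx2 (1.38), both osteoblast transcription factors, whereas Msx1, Msx2 and Id2 (-0.80) were lower, as were Hey1 and Dlx5.

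Genes whose pattern over the 18 libraries was nearest to that of a member were taken by the root mean square difference in log2 level after removing each gene's mean, among genes of similar mean level. For Chrdl1 they were Fads3 (0.513) and Ptp4a1 (0.531), against a spread of Chrdl1 around its own mean of 1.29. For Fstl1 they were Antxr1 (0.334) and Mme (0.474), against 1.26. For Bambi they were Lrp4 (0.392) and Ssr2 (0.425), against 1.12. Smad6 was nearest to Fli1 (0.329) and Arrb1 (0.384), against 0.996. Id1 was nearest to Chmp5 (0.281) and Glt8d1 (0.321), against 0.715, and Smad7 to Ranbp10 (0.242) and Ift122 (0.247), against 0.372. The 18 points share tissues and embryos, so these are descriptions.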

How the data were processed

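RNA from laser-captured tissue was amplified and sequenced as paired ends in 18 libraries, with 3 per genotype and tissue. Per the labels and file headers, the authors aligned the reads to mm10 with STAR and deposited raw counts of read pairs per gene made with featureCounts v1.5.0-p1 over Ensembl 75 exons, without regard to strand and without multimapping or multi-overlapping pairs. Total counts per library were 8218548 to 15585778. Amplified fragments are not independent molecules. Symbols were matched by gene ID for 36964 of 38243 genes.

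Groups came from the sample labels. The 11469 genes with more than 1 FPKM in no fewer than 50% of the libraries were TMM-scaled and tested with voom and limma 3.58.1 (R 4.3.3). Genotype effects were contrasts of 6 group means. Tissue differences and differences in genotype effect used the embryo as a fixed block. The embryo was inferred from matching sample numbers, and deviations from the group means hardly correlated between tissues of 1 embryo (mean r of -0.055 to 0.069 by genotype and tissue pair). The Benjamini-Hochberg threshold was 0.05. The filter kept 6 of 10 members, and Nog, Grem1, Chrd and Fst took their tests from the 14881 genes kept by filterByExpr. The smallest number of fragments taken as detectable was 3 per library. All 10 members were named, and list genes were named if they passed the threshold, up to 3 per list and comparison by size, and Crim1, Twsg1, Id2, Dlx5, Sp7 and Runx2 were named after their values were seen. The members and lists were chosen with earlier results of these data known. The p-values set each difference against the spread between these samples and take the embryos as independent. Nothing states that the embryos came from separate litters.

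Alternatives were edgeR 4.0.16, DESeq2 1.42.0, other scalings, filters, weights and blocks, and leaving out each library. On simulated counts with known changes, directions and sizes were recovered, edgeR made about the nominal share of false calls, and DESeq2, and limma in bone, made a larger share than the threshold names. Apart from those changes, the simulated libraries shared the mean of each gene over all 18 libraries. They held no tissue differences and no library that stood apart, so these shares do not rank the tools on the real counts.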

Additional observations from a re-analysis of the deposited data

How the results depend on the processing

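For the 53 log2 fold changes of members that were followed (at least 0.25 in size, or 1 for differences in genotype effect, and above 3 fragments), 1032 refits were made, of which 968 kept the direction and the side of the threshold, 26 lost a call, 32 gained one and 6 changed sign. The 37 other values, near 0 or at few fragments, changed sign in 115 of 674 refits. The 6 sign changes were Nog in MC for genotype without Fgfr2+/S252W MC 1 (-0.04) or without wild-type MC 3 (-0.45, in a range of -0.45 to 1.45 over single libraries left out), Chrd in bone against MC with total-count scaling (0.40) or in wild-type embryos alone (0.90), Chrd in condylar cartilage against MC in wild-type embryos alone (0.012), and Smad7 in bone against MC with total-count scaling (0.61). None of these was a call, and the cause was not tested. Fits of bone alone without each library, of condylar cartilage without both replicates 3, of each tissue alone with a replicate block, and of tissue contrasts without wild-type MC 1 or without both condylar replicates 3, and total-count levels of the secreted members, were chosen after seeing the data.

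Genes passing for genotype in bone were 10, and 18 with DESeq2, 4 with edgeR, 21 with filterByExpr, 53 with no filter, 589 with quality weights, 141 with bone alone, 554 with bone alone and a replicate block, and 1 with total counts. In MC they were 0, and 423 with DESeq2, 90 with edgeR, 45 with no filter and 1 with a random embryo block. In condylar cartilage they were 0, and 3 with DESeq2, 2 with quality weights and 7 with the tissue alone and a replicate block. For the difference in genotype effect, bone against MC gave 4 genes, and 68 with DESeq2, 1 with edgeR or filterByExpr, and 0 with no filter or total counts, while DESeq2 gave 2 for bone against condylar cartilage and 50 for condylar cartilage against MC, both 0 with limma. Between tissues, no filter gave 13018 genes for bone against MC, 7455 for bone against condylar cartilage and 10327 for condylar cartilage against MC, wild-type embryos alone gave 3668 for the first, and Fgfr2+/S252W embryos alone gave 2811 for the second.

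Leaving out 1 library gave 0 to 138 genes for genotype in MC, 0 to 92 in bone, and 0 to 0 in condylar cartilage, and bone fitted alone gave 1387 without wild-type replicate 3, 83 without Fgfr2+/S252W replicate 3, 35 without wild-type replicate 2 and 10 to 14 without any other library. Leaving out 1 embryo, wild-type MC 1 or both condylar replicates 3 gave 0 to 17, 0 to 2 and 0 to 0 for the differences in genotype effect (10, 2 and 0 without the condylar replicates), and 4516 to 5741, 3873 to 4789 and 5358 to 6308 for bone against MC, bone against condylar cartilage and condylar cartilage against MC. Same-numbered libraries of the genotypes had mean correlations of deviations of -0.078 in MC, 0.076 in bone and 0.12 in condylar cartilage, so the numbers were not taken as pairs between genotypes. With them as a replicate block in all tissues Chrdl1 in bone was -0.82 (limma, adjusted p = 0.181). In bone alone with that block 554 genes above 1 FPKM passed, against 141 (1.14%) without it. In that fit Chrdl1 (-0.83, adjusted p = 0.00187) and Bambi (-0.59, adjusted p = 0.0218) passed. So did Grem1 (-1.73, adjusted p = 0.00862) and Fst (-2.48, adjusted p = 0.00698), which were tested in the wider gene set. In condylar cartilage the median library held at most 3 fragments of Grem1 and of Fst in each genotype, so no genotype fold was given there, and the sizes of their tissue differences rest on few fragments.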
